A study of Homo sapiens with 6 samples.

Results

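Long intergenic non-coding RNAs (lincRNAs) are transcribed from genes of their own between protein-coding genes. The lincRNAs described here are the better expressed ones of A375 cells. The set holds genes that GENCODE release 29 types as lincRNA. Their mean over 6 libraries was at least 2 CPM (read counts scaled to the library total). Host genes of small nucleolar RNAs and microRNAs were left out by symbol only. By this rule 225 of 58721 genes were members. The annotation types 7635 genes as lincRNA, of which 239 reached the level, and 14 of these were host genes left out by symbol. Another 4 members (LINC02001, AC016205.1, C22orf34 and AC048341.1) have a current symbol of a host gene and were kept, as the rule reads the annotation's symbols. Further members overlap small RNA genes without such a symbol, such as EPB41L4A-AS1 with SNORA13, NEAT1 with MIR612 and PVT1 with MIR1204. The members were thus chosen by their level over both groups together, and their levels are given as a description.

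LincRNAs are mostly made by RNA polymerase II, and most are capped, spliced and polyadenylated like messenger RNAs, without coding for a known protein. Some have described tasks, such as building a nuclear body or binding an RNA-binding protein, but most have none, and their levels often differ strongly between cell types. SOX10 is a neural crest transcription factor of pigment cells and glia. It binds short DNA sequences through its HMG box, and it acts together with MITF in pigment cells and melanoma.

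RNA was sequenced from A375, an established human melanoma line with a mutant BRAF gene, grown in DMEM with fetal bovine serum. In 3 libraries the cells carried a guide RNA against SOX10 and have the genotype SOX10 knockout; the other 3 libraries, called control, carried a guide RNA against mCherry, a fluorescent protein gene that human cells lack, and have the genotype WT. No drug treatment, time point or second line is given. The sources used here do not say if a pool or 1 clone of knockout cells was sequenced. They also do not say that replicates were separate cultures, so the tests weigh differences against the spread of these 6 libraries, part or all of which may be technical.

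SOX10 itself had 47.2, 47.8 and 41.5 CPM in SOX10 knockout libraries, against 240.8, 237 and 223 CPM in control libraries. The mean of the knockout libraries was 19.5% of the control mean, with a log2 fold change of -2.36 (SE 0.08; adjusted p = 1.84e-07 in edgeR's quasi-likelihood test with Benjamini-Hochberg adjustment). By exact two-sided permutation of the 6 libraries p was 0.1, and no smaller value is possible with 3 in each group. Libraries held between 70075002 and 78148565 counts, so that 3 counts stood at 0.0384 to 0.0428 CPM. The 225 lincRNAs together took 0.331% to 0.410% of the counts of the knockout libraries and 0.315% to 0.375% of those of the control libraries. Of the pigment cell markers, TYR, PMEL and MLANA were under 1 CPM in the means of both groups, while MITF rose, at 138 CPM in SOX10 knockout and 57.5 CPM in control libraries. S100B, a calcium-binding protein of glia and pigment cells, fell and stood at 1.28 CPM in SOX10 knockout and 32.9 CPM in control libraries, and DCT, a melanin synthesis enzyme, fell and stood at 0.0657 CPM in SOX10 knockout and 1.62 CPM in control libraries. Of the 7 markers of this list other than SOX10, 2 rose (MITF and TYRP1) and 2 fell. The sum of the 7 ranged from 138.5 to 143.3 CPM in SOX10 knockout and from 91.95 to 95.6 CPM in control libraries. MITF made up most of this sum in both groups. In bulk RNA, fewer cells that make a transcript and less of it per cell cannot be told apart. Summed markers of fibroblasts ranged from 23.4 to 25.7 CPM in SOX10 knockout and from 16.3 to 19.2 CPM in control libraries, and those of endothelial cells from 3.07 to 3.43 CPM in SOX10 knockout and from 0.874 to 0.917 CPM in control libraries. Keratinocyte markers summed to 73.6 to 80.9 CPM in SOX10 knockout and 61.6 to 72.5 CPM in control libraries, and blood markers to 1.40 to 2.12 CPM in SOX10 knockout and 10.7 to 14.2 CPM in control libraries. Few markers carried these sums. KRT10 alone averaged 58.4 CPM in SOX10 knockout and 49.0 CPM in control libraries. LYZ, of the blood list, averaged 1.64 CPM in SOX10 knockout and 12.1 CPM in control libraries. Of the lists of other cell types, 4 of 7 fibroblast markers rose and 1 fell, 2 of 4 endothelial markers rose, 1 of 5 keratinocyte markers rose and 1 fell, and 1 of 4 blood markers fell. KRT1 was at 0 counts in all libraries, and the part of such markers in the lincRNA results was not tested.

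NORAD, the member with the highest level, is a cytoplasmic RNA known for binding the PUMILIO proteins through repeated copies of an 8-base element. The pattern TGTANATA, searched on the transcript strand only, matched 15 times in the NORAD transcript of 5339 bases, or 2.81 per kilobase. The longest transcript of HCG11 held 16 matches in 5696 bases, FTX held 7 and NEAT1 held 6, whereas 178 of the 225 members held none. Bases 1371 to 1460 of the GENCODE NORAD transcript, with 2 of these elements in capitals, read:
NORAD: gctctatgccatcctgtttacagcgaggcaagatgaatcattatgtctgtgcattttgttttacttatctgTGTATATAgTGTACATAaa

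The promoters of 8 lincRNAs with a large change are shown because SOX10 and the AP-1 factors are described to bind short motifs of this kind. Of the 12 members with the largest decrease and the 12 with the largest increase, these are all those whose matched RefSeq start lay within 1000 bases of the GENCODE start. Each is RefSeq's sequence on GRCh38.p14, from 250 bases before to 50 bases after the start. Capitals mark the SOX-type letters ACAAAG or ACAATG and the AP-1-type letters TGANTCA, on either strand, so that CTTTGT and CATTGT are the SOX-type letters read on the other strand. The 4 promoters of lincRNAs that fell lie at chr5:38148230-38148529 (LINC02119, plus strand), chr12:9367214-9367513 (LINC02367, plus strand), chr15:39250419-39250718 (LINC02915, plus strand) and chr5:149063067-149063366 (SH3TC2-DT, plus strand). The 4 of lincRNAs that rose lie at chr10:5596069-5596368 (LASTR, minus strand), chr11:72570406-72570705 (LINC01537, plus strand), chr11:9759484-9759783 (LINC02709, minus strand) and chr12:65602619-65602918 (LINC02454, plus strand).
LINC02119: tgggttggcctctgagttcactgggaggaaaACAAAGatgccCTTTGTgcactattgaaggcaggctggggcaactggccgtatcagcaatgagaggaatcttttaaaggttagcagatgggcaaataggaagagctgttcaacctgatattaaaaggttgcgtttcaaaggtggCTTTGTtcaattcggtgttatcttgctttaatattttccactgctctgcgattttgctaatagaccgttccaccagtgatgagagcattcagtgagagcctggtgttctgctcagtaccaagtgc
LINC02367: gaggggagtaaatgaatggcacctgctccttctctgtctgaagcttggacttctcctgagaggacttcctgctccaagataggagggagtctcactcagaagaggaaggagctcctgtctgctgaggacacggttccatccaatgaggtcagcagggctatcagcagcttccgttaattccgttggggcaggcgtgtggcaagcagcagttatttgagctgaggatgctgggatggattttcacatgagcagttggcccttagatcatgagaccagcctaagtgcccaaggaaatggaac
LINC02915: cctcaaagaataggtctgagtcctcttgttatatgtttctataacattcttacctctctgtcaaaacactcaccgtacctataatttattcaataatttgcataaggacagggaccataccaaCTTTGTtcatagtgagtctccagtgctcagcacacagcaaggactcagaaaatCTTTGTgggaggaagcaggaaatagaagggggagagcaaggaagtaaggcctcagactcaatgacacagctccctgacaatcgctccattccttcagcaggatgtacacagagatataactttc
SH3TC2-DT: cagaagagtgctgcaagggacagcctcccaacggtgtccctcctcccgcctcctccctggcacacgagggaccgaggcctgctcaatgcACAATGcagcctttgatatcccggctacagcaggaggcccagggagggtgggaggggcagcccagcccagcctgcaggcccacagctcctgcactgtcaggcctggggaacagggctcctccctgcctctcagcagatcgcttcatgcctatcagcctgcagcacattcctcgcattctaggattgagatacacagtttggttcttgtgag
LASTR: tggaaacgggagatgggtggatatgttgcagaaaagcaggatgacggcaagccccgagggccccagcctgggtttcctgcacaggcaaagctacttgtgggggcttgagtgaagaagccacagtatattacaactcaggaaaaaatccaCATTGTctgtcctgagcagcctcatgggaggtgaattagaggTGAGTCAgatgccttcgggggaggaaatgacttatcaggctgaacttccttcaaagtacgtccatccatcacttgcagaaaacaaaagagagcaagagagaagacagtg
LINC01537: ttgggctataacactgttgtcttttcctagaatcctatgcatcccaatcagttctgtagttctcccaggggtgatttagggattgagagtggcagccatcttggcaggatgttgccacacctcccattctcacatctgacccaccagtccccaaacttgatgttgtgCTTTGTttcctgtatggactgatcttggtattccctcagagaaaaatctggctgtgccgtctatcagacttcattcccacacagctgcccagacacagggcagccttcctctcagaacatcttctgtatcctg
LINC02709: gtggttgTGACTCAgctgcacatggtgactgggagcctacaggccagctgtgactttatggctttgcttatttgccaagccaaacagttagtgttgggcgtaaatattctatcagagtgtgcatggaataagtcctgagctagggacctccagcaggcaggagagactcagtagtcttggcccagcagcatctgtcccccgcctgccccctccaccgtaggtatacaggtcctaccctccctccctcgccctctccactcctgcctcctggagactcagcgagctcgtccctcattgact
LINC02454: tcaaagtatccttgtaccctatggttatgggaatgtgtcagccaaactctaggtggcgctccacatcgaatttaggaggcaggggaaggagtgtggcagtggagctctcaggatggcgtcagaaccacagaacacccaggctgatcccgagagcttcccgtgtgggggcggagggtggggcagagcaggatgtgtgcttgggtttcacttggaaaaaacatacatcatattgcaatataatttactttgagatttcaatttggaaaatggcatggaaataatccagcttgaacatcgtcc

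The LINC02119 promoter held 3 SOX-type matches, that of LINC02915 held 2, and those of SH3TC2-DT, LASTR and LINC01537 held 1 each. LINC02367, also among the lincRNAs with the largest decrease, held neither motif in this window, and nor did LINC02454 among those that rose. The AP-1-type letters stood once in the promoter of LASTR and once in that of LINC02709. These are matches of letters in a window, not measured binding.

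RefSeq promoters were matched for 107 of the 225 members, and in 92 of them the RefSeq and GENCODE starts lay within 1000 bases. SOX-type letters stood in 24.5% of all 35116 RefSeq promoters and in 35 of the 107 member promoters (32.7%). They were present in 8 of 17 promoters of lincRNAs that fell (47.1%), 3 of 19 of those that rose (15.8%) and 24 of 71 of those not called (33.8%). AP-1-type letters stood in 7.71% of all promoters and in 14 of the 107 (13.1%). They were present in 7 of 19 promoters of lincRNAs that rose (36.8%), 2 of 17 of those that fell (11.8%) and 5 of 71 of those not called (7.04%). With the 92 promoters of matching starts, SOX-type letters were in 6 of 12 that fell, 2 of 15 that rose and 21 of 65 not called, and AP-1-type letters in 2, 5 and 3 of the same promoters. The M-box-type letters CATGTG, the kind of E-box that MITF is described to bind, stood in 11.1% of all promoters and in 14 of the 107 (13.1%), with 1 of 17 that fell (5.88%), 2 of 19 that rose (10.5%) and 11 of 71 not called (15.5%). The set of all RefSeq promoters was not limited by gene type or level, so it is unlike the set of members. All these shares of members rest on few promoters and were not tested.

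Levels were compared between lincRNAs as CPM per kilobase of exonic length, since a longer RNA gives more reads. NORAD was highest, at 128 ± 18.1 in SOX10 knockout and 121 ± 16.3 in control libraries (CPM per kilobase, SD, n = 3 each). By the mean over both groups it was followed by LINC01029 on chromosome 18, at 100.5 ± 1.23 CPM per kilobase in SOX10 knockout and 86.7 ± 2.19 in control libraries. LINC01419 had 40.2 ± 1.39 CPM per kilobase in SOX10 knockout and 103.6 ± 2.77 in control libraries, and MALAT1 58.1 ± 25.0 in SOX10 knockout and 65.4 ± 14.6 in control libraries. In control libraries LINC01419 thus stood above LINC01029 and MALAT1, and in knockout libraries its mean was below both. NORAD had the highest mean in each group. LINC00973 had 37.7 ± 6.03 CPM per kilobase in SOX10 knockout and 5.73 ± 1.26 in control libraries, and in the knockout libraries its range overlapped those of LINC01419 and MALAT1. BX119904.2 (28.95 ± 6.10 in SOX10 knockout and 22.9 ± 3.96 in control libraries), LINC01293 (22.1 ± 1.89 in SOX10 knockout and 18.4 ± 1.99 in control libraries), CU104787.1 and AC026401.3 completed the 10 highest with AC134978.1. AC134978.1 lies inside LINC01029 on the same strand, so the reads of these 2 genes may be shared. Library preparation selected polyadenylated RNA, and MALAT1 and the long form of NEAT1 lack a conventional poly(A) tail, so their levels depend on how selection treats such ends.

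**Figure D1:**
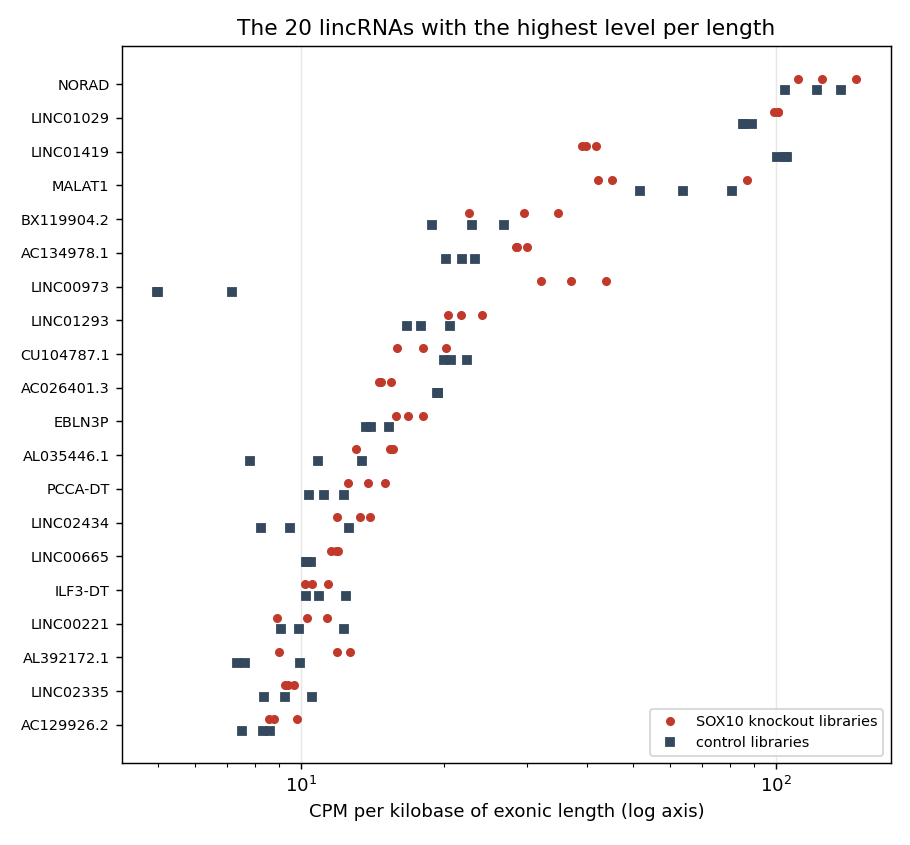
Level of the 20 lincRNAs with the highest mean per exonic length, in CPM per kilobase on a log axis; circles are SOX10 knockout and squares control libraries, 3 of each per lincRNA. LINC00973 and LINC01419 are the rows in which the groups stand farthest apart, with NORAD and LINC01029 at the top.

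NORAD and MALAT1, the 2 lincRNAs with the most counts, did not pass the main test, which takes no account of the replicate number. With the replicate number fitted as a block both passed (edgeR adjusted p = 0.0229 for NORAD and 0.00636 for MALAT1). The block fit called 9813 of the 19263 tested genes, against 5396 in the main fit. NORAD had 786, 669 and 594 CPM in SOX10 knockout libraries, against 733, 653 and 559 CPM in control libraries (edgeR log2 fold change 0.08, SE 0.12, adjusted p = 0.714). MALAT1, a nuclear RNA of the splicing speckles, had 768, 373 and 398 CPM in SOX10 knockout libraries, against 713, 562 and 456 CPM in control libraries (edgeR log2 fold change -0.17 ± 0.28 SE, adjusted p = 0.710). In both lincRNAs the groups overlapped, and the first replicate was the highest library of each group. MALAT1 passed without knockout replicate 1 (log2 fold change -0.57, edgeR adjusted p = 0.0399). It held 19.2%, 11.2% and 12.1% of the counts of the 225 lincRNAs in knockout libraries, against 19.04%, 16.5% and 13.95% in control libraries. Replicate 1 was the highest library of both groups for 69 of the 225 lincRNAs (30.7%, against 25.6% of all tested genes), replicate 3 for 72 (32.0%, against 26.4%) and replicate 2 for 6 (2.67%, against 6.17%).

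NEAT1, the RNA around which paraspeckles form in the nucleus (chr11:65422774-65445540, plus strand), had 214, 135 and 116 CPM in SOX10 knockout libraries, against 105, 71.7 and 54.8 CPM in control libraries. The groups did not overlap, but the spread within each was wide. NEAT1 rose, with a log2 fold change of 1.00 and a standard error of 0.27 (edgeR adjusted p = 0.0263). The call was lost without knockout replicate 1 (log2 fold change 0.71, edgeR adjusted p = 0.0609) and without control replicate 2 (0.95, edgeR adjusted p = 0.0991). In both groups the level fell from replicate 1 to replicate 3. With the replicate number fitted as a block the edgeR adjusted p was 3.13e-18.

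**Figure D2:**
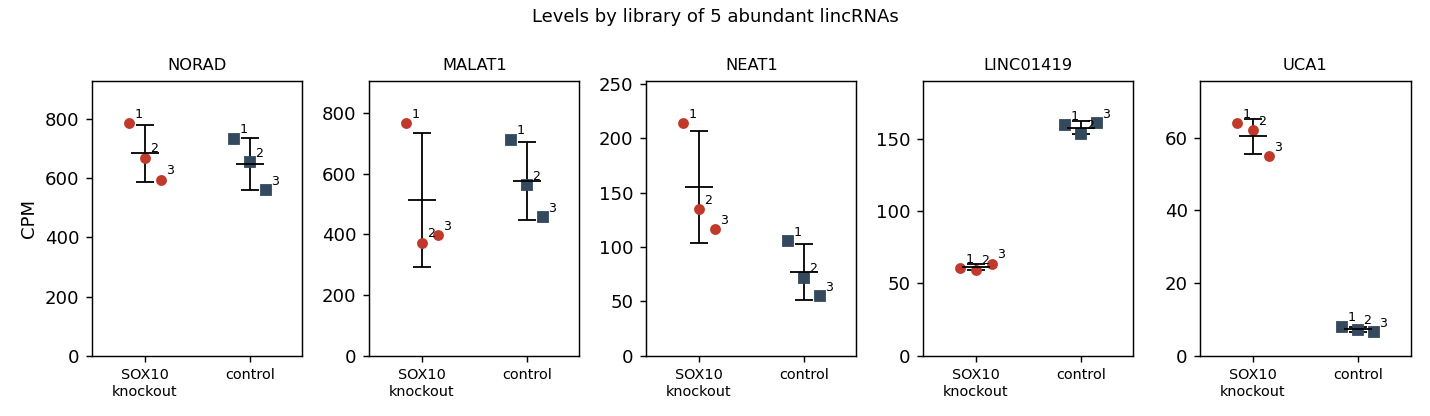
CPM per library of NORAD, MALAT1, NEAT1, LINC01419 and UCA1, with SOX10 knockout libraries left of control; the digit beside a point is the replicate number, and bars show the mean and SD (n = 3 each). Replicate 1 is the highest library of both groups for NORAD, MALAT1 and NEAT1, while the groups of LINC01419 and UCA1 stand far apart.

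All 225 lincRNAs passed the filter on low counts and were tested with 19263 genes in all. Of them, 43 were higher and 35 lower in SOX10 knockout libraries at an adjusted p of 0.05 (edgeR quasi-likelihood test, Benjamini-Hochberg adjustment over all tested genes), and 147 were not called. The 78 calls are 34.7% of the members, against 28.0% of all tested genes, 30.6% of the 12615 tested genes whose mean reached 2 CPM and 31.9% of the protein-coding genes at that level. The higher calls were 19.1% of the members, against 14.0% of all tested genes and 14.0% of those at that level. The lower calls were 15.6%, against 14.0% of all tested genes and 16.6% of those at that level. Without control replicate 2 the count of higher lincRNAs was 24, and 3797 of all tested genes were called, against 5396 in the main fit. Changes of at least 2-fold were called for 12 lincRNAs that rose and 16 that fell, where 3.43% of the tested genes at that level rose and 3.43% fell by as much. The 3 knockout libraries lay above all control libraries for 60 lincRNAs and below them for 46, where the shares of tested genes at that level were 19.2% above and 24.8% below.

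The median log2 fold change over the 225 lincRNAs was 0.09, against -0.02 over all tested genes, with a range from -4.91 to 3.06. It was above 0 in 136 lincRNAs and below 0 in 89, and 116 lincRNAs lay within 1.2-fold. The 147 lincRNAs not called had log2 fold changes from -0.43 to 0.51, the 43 that rose had a median of 0.64 and the 35 that fell a median of -0.93. The level rule admits a lincRNA that is high in 1 group only. In 32 members the mean of 1 group was under 2 CPM, of which 13 of the 19 low in control were higher and 12 of the 13 low in knockout were lower; a lincRNA that enters through 1 group alone had to differ. Among the 193 lincRNAs with both means at 2 CPM or more, 30 were higher and 23 lower (27.5%), and 6 in each direction changed at least 2-fold. Tested genes whose overall mean reached 2 CPM, with no limit on each group, were called in 30.6%. In each direction 3.43% of them were called with a change of at least 2-fold. At the edge of the rule, LINC02393 had 2.41 CPM in SOX10 knockout and 1.59 CPM in control libraries and LINC01537 had 2.94 CPM in SOX10 knockout and 1.07 CPM in control libraries, just inside. AC016831.6 had 2.66 CPM in SOX10 knockout and 1.31 CPM in control libraries and LINC01410 had 2.62 CPM in SOX10 knockout and 1.35 CPM in control libraries, just outside.

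**Figure D3:**
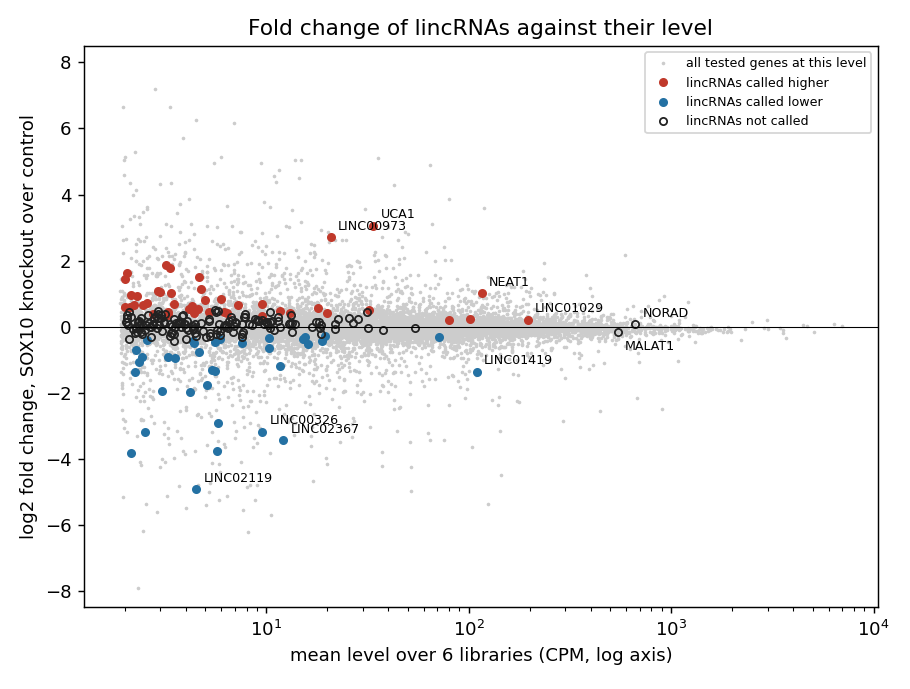
Log2 fold change of SOX10 knockout over control (vertical) against the mean CPM of 6 libraries (horizontal, log axis); grey points are all tested genes at this level, filled circles lincRNAs called higher or lower, and open circles lincRNAs not called. LINC02119 is the lowest lincRNA at -4.91 and UCA1 the highest at 3.06, and the lincRNAs above 100 CPM lie close to 0 apart from NEAT1 and LINC01419.

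The lincRNAs were also counted by their surroundings. Of the 104 lincRNAs that overlap no other annotated gene, 26 were higher and 18 lower (42.3% called). Of the 121 that overlap one, 17 were higher and 17 lower (28.1%), and where an overlapping gene lies on the opposite strand (90 lincRNAs), 9 were higher and 10 lower (21.1%). The share over all tested genes was 28.0%, and the differences between these groups of lincRNAs were not tested. The sources used here do not give the strand setting of the counting, so reads of such pairs may not be separated. By level, 11 were higher and 11 lower of the 56 lincRNAs with at least 10 CPM, 8 and 9 of the 58 between 5 and 10 CPM, and 24 and 15 of the 111 between 2 and 5 CPM. On the short arm of chromosome 21, 0 of 8 lincRNAs were higher and 1 was lower. Annotated genes there have near-identical copies, so reads may be split between copies, which was not tested. Likewise FAM225A and FAM225B are close copies of each other. Of the 970 tested lincRNAs under 2 CPM, 163 were higher and 75 lower.

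The largest decrease was that of LINC02119 (chr5:38148480-38153715, plus strand), which had 0.167, 0.421 and 0.268 CPM in SOX10 knockout libraries, against 8.69, 8.59 and 8.89 CPM in control libraries. It was 30.6-fold lower in knockout libraries (edgeR log2 fold change -4.91 ± 0.21 SE, adjusted p = 7.35e-07). All knockout libraries were far below all control libraries. This lincRNA overlaps LINC02107 on the same strand.

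LINC00327 (chr13:23466571-23487464, plus strand) had 0.153, 0.345 and 0.344 CPM in SOX10 knockout libraries, against 4.36, 3.45 and 4.20 CPM in control libraries, 14.3-fold lower (edgeR log2 fold change -3.81 ± 0.24 SE, adjusted p = 7.13e-06). AL035541.1 (chr20:57599695-57601200, minus strand) had 0.653, 0.907 and 0.765 CPM in SOX10 knockout libraries, against 11.8, 9.25 and 11.1 CPM in control libraries, 13.8-fold lower (edgeR adjusted p = 5.34e-07). LINC02367 (chr12:9367464-9397617, plus strand) had 2.35, 1.95 and 1.84 CPM in SOX10 knockout libraries, against 23.4, 21.3 and 22.1 CPM in control libraries, 10.9-fold lower (edgeR adjusted p = 1.48e-07). In these 3 lincRNAs the lowest control library stood several times above the highest knockout library.

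LINC00326 (chr6:133088080-133106578, plus strand) had 1.79, 1.86 and 2.03 CPM in SOX10 knockout libraries, against 15.7, 16.2 and 19.8 CPM in control libraries, 9.09-fold lower (edgeR adjusted p = 4.06e-07). LINC02915, listed in the annotation as C15orf54 (chr15:39250684-39254845, plus strand), had 1.33, 1.55 and 1.17 CPM in SOX10 knockout libraries, against 10.05, 9.98 and 10.5 CPM in control libraries, 7.53-fold lower (edgeR adjusted p = 4.72e-07). AC020907.1 (chr19:35090930-35113664, plus strand) was 9.14-fold lower in SOX10 knockout libraries, with 0.556, 0.421 and 0.510 CPM, against 4.07, 4.48 and 5.05 CPM in control libraries (edgeR adjusted p = 1.53e-06). LINC02915 overlaps a gene on the opposite strand. AC020907.1 overlaps HPN-AS1 on the opposite strand and the protein-coding AC020907.6 on its own strand, so its reads may be shared, while LINC00326 overlaps none.

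LINC01419 (chr8:83403758-83408900, plus strand) was the most abundant of the lincRNAs with a large decrease. It had 60.5, 59.5 and 63.6 CPM in SOX10 knockout libraries, against 159, 153 and 161 CPM in control libraries, 2.57-fold lower (edgeR log2 fold change -1.36 ± 0.06 SE, adjusted p = 7.47e-07). The libraries of each group lay close together. AL121578.3 on the X chromosome had 1.97, 1.58 and 1.54 CPM in SOX10 knockout libraries, against 7.37, 6.78 and 6.03 CPM in control libraries, 3.96-fold lower (edgeR adjusted p = 9.30e-06). LINC01060 had 2.01, 2.22 and 2.64 CPM in SOX10 knockout libraries, against 7.23, 7.91 and 8.56 CPM in control libraries, 3.45-fold lower (edgeR adjusted p = 1.21e-05). The groups of both stood clear of each other, as did those of SH3TC2-DT, which was 3.91-fold lower. AL121578.3 overlaps AF241726.2 and AL121578.1 on its own strand, and reads may be shared there. LNCAROD, an RNA described as an activating regulator of the Wnt inhibitor DKK1, had 1.21, 1.46 and 1.10 CPM in SOX10 knockout libraries, against 3.39, 2.86 and 3.55 CPM in control libraries (log2 fold change -1.38, edgeR adjusted p = 0.000211).

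**Figure D4:**
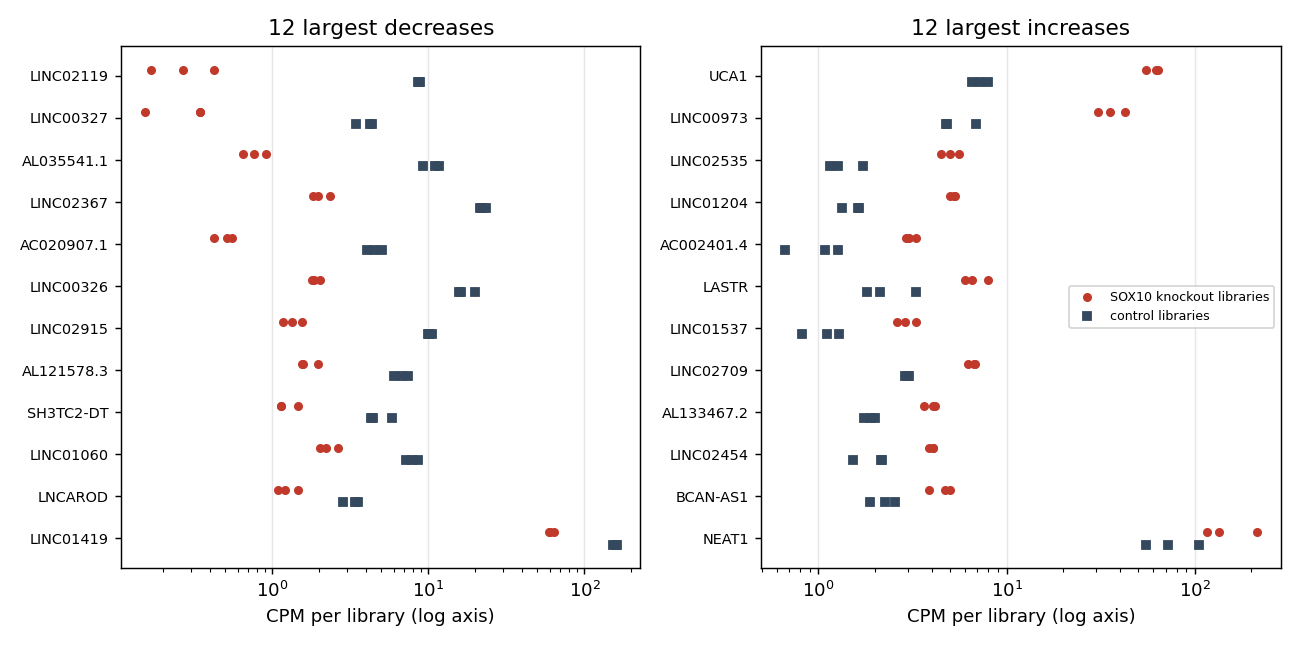
CPM per library, on a log axis, of the 12 lincRNAs with the largest decrease (left) and the 12 with the largest increase (right) among called lincRNAs whose groups do not overlap; circles are SOX10 knockout and squares control libraries. LINC02119 at the top left is 30.6-fold lower and UCA1 at the top right 8.34-fold higher in SOX10 knockout libraries.

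The largest increase was that of UCA1, an RNA first described in bladder cancer and found in several carcinomas (chr19:15828206-15836326, plus strand). It had 64.1, 62.1 and 54.9 CPM in SOX10 knockout libraries, against 7.98, 7.21 and 6.53 CPM in control libraries, 8.34-fold higher (edgeR log2 fold change 3.06 ± 0.10 SE, adjusted p = 1.84e-07). LINC00973 (chr3:98981058-98983096, plus strand) had 30.8, 35.6 and 42.3 CPM in SOX10 knockout libraries, against 4.80, 4.83 and 6.91 CPM in control libraries, 6.58-fold higher (edgeR log2 fold change 2.72 ± 0.17 SE, adjusted p = 6.40e-06). In both, every knockout library was several times above the highest control library. Each overlaps another annotated transcript, LINC01764 for UCA1 and AC091212.1 for LINC00973.

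LINC02535 (chr6:85387219-85390186, minus strand) had 4.46, 5.02 and 5.60 CPM in SOX10 knockout libraries, against 1.26, 1.16 and 1.73 CPM in control libraries, 3.63-fold higher (edgeR adjusted p = 6.08e-05). LINC01204 on the X chromosome had 5.02, 5.31 and 5.24 CPM in SOX10 knockout libraries, against 1.33, 1.62 and 1.64 CPM in control libraries, 3.39-fold higher (edgeR adjusted p = 8.24e-06). LASTR, described as a stress-induced RNA that acts on the splicing factor SART3 (chr10:5594991-5596118, minus strand), had 6.03, 6.54 and 7.97 CPM in SOX10 knockout libraries, against 2.13, 1.81 and 3.30 CPM in control libraries, 2.84-fold higher (edgeR adjusted p = 0.00091). No control library reached a knockout library in any of these 3.

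AC002401.4 had 3.32, 3.04 and 2.93 CPM in SOX10 knockout libraries, against 1.26, 1.08 and 0.666 CPM in control libraries, 3.09-fold higher (edgeR adjusted p = 0.000509). LINC01537 (chr11:72570660-72573229, plus strand) had 2.89, 3.31 and 2.63 CPM in SOX10 knockout libraries, against 0.820, 1.11 and 1.29 CPM in control libraries, 2.74-fold higher (edgeR adjusted p = 0.000437). LINC02709 had 6.24, 6.70 and 6.83 CPM in SOX10 knockout libraries, against 2.99, 2.90 and 3.05 CPM in control libraries, 2.21-fold higher (edgeR adjusted p = 2.45e-05). The libraries of LINC02709 lay close together within each group. AL133467.2, LINC02454 and BCAN-AS1 rose by 1.07, 1.04 and 1.02 on the log2 scale, with adjusted p between 0.000164 and 0.00109. All of these lincRNAs stood under 10 CPM in both groups, below UCA1 and LINC00973 in the knockout libraries.

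Of the abundant lincRNAs, LINC01029 (chr18:77971294-77993722, minus strand) had 211.9, 207.5 and 212.0 CPM in SOX10 knockout libraries, against 186.8, 179.2 and 178.5 CPM in control libraries (edgeR log2 fold change 0.21 ± 0.05 SE, adjusted p = 0.0184). The groups did not overlap, but the adjusted p was 0.0664 without knockout replicate 2, 0.0549 without knockout replicate 3 and 0.105 without control replicate 2. AC134978.1, inside LINC01029, had 23.6, 22.4 and 22.5 CPM in SOX10 knockout libraries, against 18.3, 17.2 and 15.9 CPM in control libraries (log2 fold change 0.41, edgeR adjusted p = 0.00302). AC026401.3 fell, with a log2 fold change of -0.38 (edgeR adjusted p = 0.00242). BX119904.2, LINC01293 and CU104787.1 had log2 fold changes of 0.34, 0.26 and -0.22 and did not pass. BX119904.2 passed without knockout replicate 1 (adjusted p = 0.0387) and LINC01293 without control replicate 1 (adjusted p = 0.0279). With the replicate number fitted as a block BX119904.2, LINC01293 and CU104787.1 passed (edgeR adjusted p = 3.38e-05, 2.42e-05 and 0.0309).

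A panel of 62 names of intergenic RNAs with a described function or link to melanoma, of which 41 genes were tested, held 11 that were higher, 8 that were lower and 22 that were not called. Over all tested genes 14.0% were higher and 14.0% lower, and the panel was written with earlier results of these data known. Their median log2 fold change was 0.08. Of the 18 panel genes among the 225 lincRNAs, 6 were higher and 2 lower, and 10 were not called, where 30.6% of the tested genes whose mean reached 2 CPM were called. The members that rose were UCA1, NEAT1, PURPL, LINC00467, LINC01116 and LINC00665, and those that fell were CRNDE and EPB41L4A-AS1.

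PURPL, a target of p53 that is known for damping p53 itself (chr5:27472292-27496401, plus strand), had 7.88, 7.73 and 7.40 CPM in SOX10 knockout libraries, against 4.45, 4.23 and 4.08 CPM in control libraries, 1.80-fold higher (edgeR log2 fold change 0.85 ± 0.08 SE, adjusted p = 9.94e-05). CRNDE, an RNA raised in colorectal tumours, had 12.4, 12.5 and 14.9 CPM in SOX10 knockout libraries, against 17.4, 17.3 and 22.1 CPM in control libraries (log2 fold change -0.52, edgeR adjusted p = 0.0120). The groups of PURPL and of CRNDE did not overlap, and CRNDE lost its call without knockout replicate 2 (adjusted p = 0.0599). LINC00467 (0.46), LINC01116 (0.32), LINC00665 (0.19) and EPB41L4A-AS1 (-0.32) had smaller log2 fold changes, with adjusted p between 0.0288 and 0.0430.

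Each of these 4 calls was lost in several of the fits that left out 1 library. Such fits have less power: without control replicate 2 the calls over all tested genes went from 5396 to 3797. With the replicate number fitted as a block all 4 passed (edgeR adjusted p from 2.70e-06 to 0.00029). The call of LINC00665 was lost on leaving out any library but control replicate 3, with adjusted p of 0.0731, 0.114 and 0.0580 without knockout replicates 1, 2 and 3 and 0.0732 and 0.142 without control replicates 1 and 2. LINC00467 lost its call without knockout replicates 2 and 3 (0.106 and 0.0812) and control replicates 1 and 2 (0.0729 and 0.105). LINC01116 lost it without knockout replicates 2 and 3 (0.0843 and 0.0927) and control replicates 1 and 2 (0.0854 and 0.132). EPB41L4A-AS1 lost it without knockout replicates 1 and 2 (0.117 and 0.171) and control replicates 2 and 3 (0.0972 and 0.0910), and when libraries were scaled by total counts (0.0547) or filtered at 1 CPM in 3 libraries (0.0521). LINC00665 also lost it with no filter on low counts (0.0842). LINC02393 lost its call without knockout replicate 2 (0.0531) and control replicate 2 (0.0608).

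CYTOR, which is named for its part in the cytoskeleton, had 38.5, 36.4 and 34.0 CPM in SOX10 knockout libraries, against 39.5, 39.7 and 37.7 CPM in control libraries (log2 fold change -0.10, edgeR adjusted p = 0.314). PVT1, a neighbour of MYC, had 5.81, 5.57 and 5.20 CPM in SOX10 knockout libraries, against 4.21, 5.02 and 5.50 CPM in control libraries (log2 fold change 0.17, edgeR adjusted p = 0.335). Their groups overlapped. LINC00662, LINC00941, LINC00460, FTX and LINC00847 had log2 fold changes between 0.07 and 0.20 and did not pass. With the replicate number fitted as a block CYTOR, LINC00941 and LINC00460 passed (edgeR adjusted p = 0.0313, 0.0321 and 0.0239). PVT1, LINC00662, FTX and LINC00847 did not pass there either.

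The remaining panel genes lie outside the set because of their level, their gene type or, for MIR4435-2HG, the symbol of a host gene. SAMMSON, a melanoma lincRNA beside MITF that is known as a target of SOX10, stood at 1.08 CPM in SOX10 knockout and 1.91 CPM in control libraries (log2 fold change -0.82, edgeR adjusted p = 0.00194). LINC00511 averaged 15.7 CPM in SOX10 knockout and 40.0 CPM in control libraries (-1.35, edgeR adjusted p = 2.03e-05), and LUCAT1 averaged 9.64 CPM in SOX10 knockout and 2.67 CPM in control libraries (1.85, edgeR adjusted p = 6.25e-06). TUG1 averaged 103 CPM in SOX10 knockout and 101 CPM in control libraries and did not pass (edgeR adjusted p = 0.839).

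Further members were chosen after their values were seen. LINP1, described as a scaffold in the joining of DNA ends, averaged 8.83 ± 0.883 CPM in SOX10 knockout and 5.67 ± 0.301 CPM in control libraries (log2 fold change 0.64, edgeR adjusted p = 0.0015; SD, n = 3 each). MANCR, known as a mitosis-associated RNA, averaged 5.22 ± 0.207 CPM in SOX10 knockout and 3.41 ± 0.640 CPM in control libraries (0.61, edgeR adjusted p = 0.0101). DUBR averaged 11.8 ± 0.708 CPM in SOX10 knockout and 7.33 ± 0.236 CPM in control libraries (0.68, edgeR adjusted p = 0.000271), and LINC01234 averaged 37.8 ± 0.712 CPM in SOX10 knockout and 26.6 ± 0.591 CPM in control libraries (0.51, edgeR adjusted p = 0.000251). All 4 rose. LINC01819 had 6.70, 7.16 and 7.56 CPM in SOX10 knockout libraries, against 15.8, 16.4 and 16.9 CPM in control libraries, and fell (-1.19, edgeR adjusted p = 7.22e-06). HCG11, which shares the high number of PUMILIO elements with NORAD, had 32.0, 26.3 and 25.3 CPM in SOX10 knockout libraries, against 29.1, 25.98 and 22.7 CPM in control libraries. Its groups overlapped and it did not pass (0.10, edgeR adjusted p = 0.576).

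LincRNAs are often set beside the protein-coding gene next to them, and each of the 225 was paired with the nearest one by distance between gene bodies. The neighbour was tested in 172 pairs, and in these 66 neighbours (38.4%) and 56 lincRNAs were called. Called were 28.0% of all tested genes and 31.9% of the protein-coding genes whose mean reached 2 CPM. The neighbours had no such level limit, so the shares come from unlike sets. The log2 fold changes of lincRNA and neighbour had the same sign in 95 of the 172 pairs. In 23 pairs both were called: in 4 both were higher, in 12 both were lower and in 7 they went opposite ways. Pearson's r of the log2 fold changes across the 172 pairs was 0.23 and Spearman's rho 0.19. The same coefficients were 0.56 and 0.32 in 28 pairs whose gene bodies overlap, 0.53 and 0.31 in 60 pairs under 10 kilobases apart, 0.25 and 0.13 in 48 pairs at 10 to 100 kilobases and 0.02 and -0.03 in 36 pairs farther apart. The pairs share their libraries, pairs that overlap can share reads, and the coefficients are a description across genes.

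SH3TC2-DT (chr5:149063317-149109787, plus strand) starts 154 bases from SH3TC2, a gene of Schwann cell myelination, on the other strand. It had 1.14, 1.46 and 1.13 CPM in SOX10 knockout libraries, against 4.41, 4.31 and 5.85 CPM in control libraries (log2 fold change -1.96, edgeR adjusted p = 4.59e-05). SH3TC2 averaged 19.6 ± 1.53 CPM in SOX10 knockout and 52.4 ± 1.54 CPM in control libraries (log2 fold change -1.42, edgeR adjusted p = 2.18e-06). The pair fell together. In 33 lincRNAs the start lay within 1000 bases of that of a protein-coding gene on the other strand. Only genes that read away from the lincRNA were counted, and the median distance between starts was 167 bases. Of these lincRNAs 7 were higher and 3 lower (30.3% called). That is near the 30.6% of tested genes whose mean reached 2 CPM. Of the 32 such partners that were tested, 15 were called (46.9%), against 28.0% of all tested genes. Among protein-coding genes whose mean reached 2 CPM 31.9% were called. The log2 fold changes had the same sign in 16 of these pairs, with Pearson's r of 0.48 and Spearman's rho of 0.07. Called together with their lincRNA were 4 partners, SH3TC2 in the same direction and BAIAP2, NRF1 and RIPK2 in the opposite one.

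Among the lincRNAs that rose, LINC02535 lies 59398 bases from NT5E, the gene of the ecto-nucleotidase CD73, which averaged 145.6 ± 2.40 CPM in SOX10 knockout and 68.4 ± 1.84 CPM in control libraries (log2 fold change 1.09, edgeR adjusted p = 1.85e-06). LINC00973 lies 79369 bases from DCBLD2, a membrane receptor gene, which averaged 1515 ± 38.6 CPM in SOX10 knockout and 899.7 ± 33.1 CPM in control libraries (0.75, edgeR adjusted p = 2.35e-05). LINC01537 lies 2912 bases from PDE2A, a cyclic nucleotide phosphodiesterase gene, which averaged 3.13 ± 0.357 CPM in SOX10 knockout and 0.614 ± 0.0564 CPM in control libraries (2.34, edgeR adjusted p = 8.61e-06). In each pair the lincRNA and the neighbour rose. NEAT1 rose while its neighbour FRMD8, 9249 bases away, fell, averaging 43.4 ± 1.80 CPM in SOX10 knockout and 51.9 ± 1.27 CPM in control libraries (-0.26, edgeR adjusted p = 0.0136).

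Of the neighbours of lincRNAs that fell, EYA4 beside LINC00326 and EGFLAM beside LINC02119 did not pass (log2 fold changes -0.09 and 0.33). The neighbours of LINC02367, LINC01419, AL035541.1, AC020907.1, LINC02915, AL121578.3, LINC01060 and LNCAROD had too few counts to be tested, as had those of UCA1, LINC01204 and AL133467.2. PDK2, ASB13, SWAP70, MSRB3 and BCAN, the neighbours of AC002401.4, LASTR, LINC02709, LINC02454 and BCAN-AS1, had log2 fold changes from -0.21 to 0.04 and did not pass.

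Pairs outside the largest changes were chosen after their values were seen. TEX41 had 2.79, 3.14 and 3.39 CPM in SOX10 knockout libraries, against 6.74, 7.38 and 9.07 CPM in control libraries (log2 fold change -1.31, edgeR adjusted p = 0.000133), and its neighbour ZEB2, a transcription factor of the neural crest 143384 bases away, averaged 19.97 ± 2.79 CPM in SOX10 knockout and 54.6 ± 8.22 CPM in control libraries (-1.45, edgeR adjusted p = 6.96e-05). OLMALINC averaged 3.18 ± 0.348 CPM in SOX10 knockout and 8.04 ± 0.604 CPM in control libraries (-1.34, edgeR adjusted p = 3.43e-05), and SCD, the stearoyl-CoA desaturase gene 8679 bases away, averaged 241.5 ± 15.8 CPM in SOX10 knockout and 422.5 ± 40.6 CPM in control libraries (-0.81, edgeR adjusted p = 0.000165). FOXD2-AS1 and FOXD2 fell by 1.07 and 2.19 on the log2 scale, and LINC00461 and MEF2C by 0.95 and 1.22. CRNDE and IRX5, which lie 1673 bases apart, fell by 0.52 and 0.80.

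**Figure D5:**
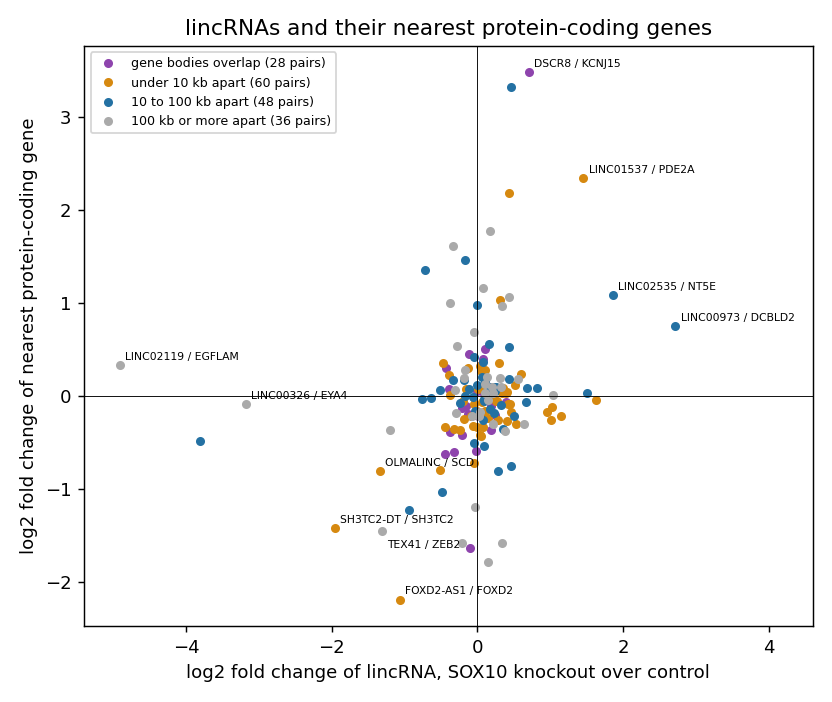
Log2 fold change of the nearest protein-coding gene (vertical) against that of the lincRNA (horizontal), both SOX10 knockout over control, for the 172 pairs with a tested neighbour; colours mark the distance between gene bodies. LINC02535 with NT5E, LINC00973 with DCBLD2 and LINC01537 with PDE2A lie in the upper right, SH3TC2-DT with SH3TC2 and TEX41 with ZEB2 in the lower left, and LINC02119 lies far left with a neighbour near 0.33.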

How the data were processed

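RNA of 6 A375 libraries, 3 SOX10 knockout and 3 control, was extracted with a column kit and made into libraries with a stranded mRNA kit, per the labels' protocols. HISAT2, HTSeq and the build hg38 are named per the submitters' processing notes. The sources used here give no versions, strand setting or annotation release. The authors deposited raw counts per gene in 1 table, not normalized, with 0 rows that name no gene. All 58721 gene identifiers were found in GENCODE 29 (GRCh38), which gave types and coordinates.

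Counts were tested over the whole table with edgeR 4.0.16 in R 4.3.3: filterByExpr, TMM scaling, a two-sided quasi-likelihood test without covariates and Benjamini-Hochberg adjustment with a threshold of 0.05. "Called" means past that threshold. CPM values use TMM-scaled library sizes; the rule for members uses column totals. Per-length values divide by exonic length. The fit was tested on simulated data. Named were the panel members, the 10 highest per length, the 12 largest changes in each direction without overlap between groups, the 2 lincRNAs nearest the level limit on each side, and neighbours of the 12; the text marks other genes as chosen with their values in view. Some genes that this rule takes are not reported here. The members, panel and lists were chosen with earlier results of these data known. Counts of 3 are a floor for counting error only.

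Alternatives were DESeq2 1.42.0, limma 3.58.1 with voom, other scalings and filters, glmTreat, a replicate block, 1 library left out at a time, and other level limits. Tables and plots used Python 3.11.15, numpy 2.4.6, pandas 2.3.3 and matplotlib 3.10.9.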

Additional observations from a re-analysis of the deposited data

How the results depend on the processing

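In the main fit 43 lincRNAs were higher and 35 lower. With glmTreat's 2-fold threshold there were 5 higher and 12 lower, 3 and 2 of the panel (11 and 8 in the main fit), and 1 neighbour pair called in the same direction (16). Over all 19263 tested genes glmTreat called 1232. Restricting the set to lincRNAs that overlap no gene gave 26 higher and 18 lower, a level limit of 5 CPM 19 and 20, and one of 1 CPM 73 and 49; the set is smaller or larger by construction. With both group means at 2 CPM or more, an alternative chosen after seeing the data, 30 were higher and 23 lower (27.5%). Of the tested genes whose overall mean reached 2 CPM, 30.6% were called. The replicate number as a block gave 79 higher, 51 lower and 33 neighbour pairs. Over all 19263 tested genes it called 9813, against 5396 in the main fit. It called 8 of the named lincRNAs that the main fit did not (NORAD, MALAT1, CYTOR, LINC01293, BX119904.2, LINC00941, LINC00460 and CU104787.1). Deviations of same-numbered libraries correlated at 0.30, -0.004 and 0.31, and those of differently numbered libraries at -0.33 to 0.06. Whether the groups share a replicate effect was not tested. The labels state no pairing, and the main fit used no block. Leaving out 1 library gave 24 to 51 higher, 25 to 35 lower, 8 to 13 and 6 to 9 of the panel, 11 to 22 pairs and -2.40 to -2.30 for SOX10. The low of 24 was without control replicate 2. Over all tested genes the fits without 1 library called 3797 to 5893, against 5396 in the main fit. Of the 78 calls, DESeq2 also made 78, limma-voom 76, and total-count scaling 72. Over the named lincRNAs and all alternatives, 601 comparisons kept direction and side of the threshold, 46 lost the call, 11 gained it and 0 reversed. Depth limits lincRNAs near 3 counts, 0.0384 to 0.0428 CPM.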
